A study of Mus musculus with 282 samples.

Results

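The cells described here are 21 granulocyte-monocyte progenitors (GMPs) that were given tumour necrosis factor (TNF) and that the authors classed as non-responsive, meaning without an NfκB signalling response, set against 47 blank cells of the same class. They were chosen by the stimulus and response columns of the authors' own cell tables, and not by any expression value. They make up 11.8% of the 178 TNF cells, among 238 cells in those tables and 282 samples in all. They came from 2 experiments. The first, with cells on a single plate and called the 1-plate experiment here, set 3 non-responsive TNF cells against 13 non-responsive blank cells. The main experiment, called the 2-plate experiment, set 18 non-responsive TNF cells (7 on Plate1 and 11 on Plate2) against 34 non-responsive blank cells (18 on Plate1 and 16 on Plate2).

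TNF binds receptors at the cell surface and releases the transcription factor NfκB from its IκB inhibitors, after which the NfκB subunit p65 enters the nucleus and switches on target genes. The inhibitors are themselves targets, so that nuclear p65 can rise and fall repeatedly, rise once, or stay high. GMPs are bone marrow progenitors that give rise to neutrophils and monocytes, and cells that receive the same stimulus can differ in how p65 moves.

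The study followed single GMPs under a confocal microscope for 8 h, then picked each cell with a micromanipulator and made an adapted Smart-Seq2 library, which amplifies whole messenger RNA, with Nextera reagents. The TNF non-responsive cells, the responding TNF cells and the blank cells all came from bone marrow of male and female mice aged 12 to 19 weeks, homozygous for GFP-p65, a fluorescent p65 fusion that shows where p65 is, and heterozygous for H2BmCherry, a fluorescent histone that marks the nucleus. Responding TNF cells are those the authors called oscillatory (56 cells) or transient (76 cells). The sources used here do not state the TNF dose, what blank cells received, how a response was scored, or which animal each cell came from. The 2 experiments may thus share animals. The p-values measure how differences between classes varied between these 2 experiments, pooled over all classes in the fit. The number of cells in a class was given no weight. The response class was taken over as the authors gave it. The files list Ensembl mouse identifiers without gene names, and 0 of 55450 identifiers matched the reference gene table. Genes are therefore given by identifier with no role, no pathway list could be read, and the GMP label could not be set against marker genes.

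Depth was similar between the classes except on Plate2. The 21 TNF non-responsive cells held 182301 to 2632203 reads, against 297165 to 2971468 reads in the 47 blank cells. Summed over cells, the TNF non-responsive class had 2819111 reads in the 1-plate and 26757369 reads in the 2-plate experiment, against 12196006 and 61942023 reads in blank cells. On Plate2, 6 of 11 TNF non-responsive cells had under 8000 detected genes, against 2 of 16 blank cells, and the median share of reads from added spike-in RNA was 6.89% over the 11 cells, against 1.32% over the 16 blank cells. On Plate1 and in the 1-plate experiment 0 TNF non-responsive cells were under 8000 genes, against 0 and 2 blank cells. Those low-complexity cells stand apart, and results that rest on them are also given without them.

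**Figure D1:**
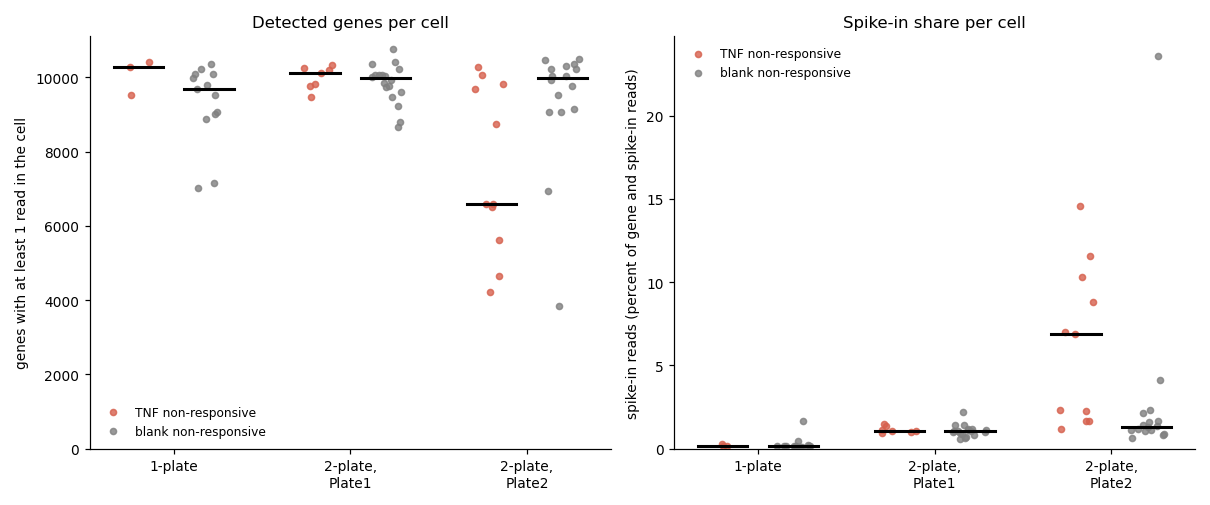
Genes with at least 1 read (left) and spike-in reads as a percent of gene and spike-in reads (right) in each TNF non-responsive cell and each blank non-responsive cell, by experiment and plate; points are cells and lines are medians. On Plate2 of the 2-plate experiment the TNF non-responsive cells had a median of 6590 detected genes, against 9979.5 in blank cells, while on Plate1 the medians were 10106 in TNF non-responsive and 9973.5 in blank cells.

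The authors called a cell-cycle phase for each cell. In the 2-plate experiment 7 of 18 TNF non-responsive cells were called G2M (38.9%, exact 95% interval 17.3 to 64.3%), against 20 of 34 blank cells (58.8%, 40.7 to 75.4%). S was called in 5 of 18 TNF non-responsive cells, against 5 of 34 blank cells. The intervals overlapped, and the phase make-up is set beside later results. Intervals on reads and cells cover counting error only.

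The first question was whether cells that showed no NfκB response to TNF differed in their RNA from cells that had no TNF. They did for 65 genes. Of 14642 genes tested, 53 rose and 12 fell in TNF non-responsive against blank non-responsive cells (edgeR quasi-likelihood test on reads summed per experiment and class, Benjamini-Hochberg adjusted p under 0.05, n = 2 experiments), which is 0.444% of genes tested, 0.362% higher and 0.082% lower. The 53 genes that rose had a median log2 fold change of 2.71, with a range of 1.05 to 9.85, and 38 of them changed at least 4-fold. The 12 that fell had a median of -2.05, and 6 of them changed at least 4-fold. Over all genes tested the median was -0.06.

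All 65 genes had the same direction in both experiments, a share of 54.1% over all genes tested, but that agreement is part of what the test selects. Within the 2-plate experiment, all 53 risen genes were also higher on each plate and 9 of the 12 fallen genes were lower on each plate. Over all genes tested 32.1% had one direction in both experiments and on both plates, and the plates hold the same cells that chose the 65 genes. A median of 88.9% of the 18 TNF non-responsive cells had a read of a risen gene, against 70.6% of the 34 blank cells. Leaving out the single highest TNF non-responsive cell for each gene kept all 53 higher than blank cells in the 2-plate experiment. In the 1-plate experiment, with 3 cells, 1 cell gave over 50% of the reads for 43 of the 53 genes. Leaving out the highest cell of each gene there, 40 of all 53 genes stayed higher than in blank cells and 13 did not.

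The calls rest on the 1-plate experiment more than the directions do. Without its G2M-phase TNF non-responsive cell, which leaves 2 cells there, 0 genes were called by edgeR (1923 at an unadjusted p under 0.05), although all 65 genes kept their direction and the risen genes a median log2 fold change of 2.35. With no experiment term 1 gene rose and 0 fell, and with the 1-plate experiment left out, where the plates of the 2-plate experiment stood as the replicates, 27 rose and 2 fell, 13 of them among the 65. Without the 6 low-complexity TNF non-responsive cells 51 rose and 13 fell, and 61 of the 65 were among them. Among G2M cells only, 46 rose and 3 fell, 25 of them among the 65, and 64 of the 65 kept their direction. In that fit the TNF non-responsive sum of the 1-plate experiment was 1 cell, the same G2M-phase cell, so the fit gives no check apart from it.

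The 2 risen and 2 fallen genes with the largest fitted changes, among those with one direction in both experiments and on both plates, are given cell by cell. ENSMUSG00000001663 rose by the largest amount. It had 19.2 CPM (reads per 1000000 reads of the summed cells) in TNF non-responsive cells of the 1-plate experiment (0, 11.1 and 36.5 CPM in the 3 cells), against 0 in the 13 blank cells, which allows up to 0.246 CPM (3 reads over the group). On the plates of the 2-plate experiment it had 16.7 CPM on Plate1 and 9.54 CPM on Plate2 in TNF non-responsive cells, against 0 and 0.031 CPM in blank cells. The groups were separate in their sums, yet few cells carried the gene: 6 of 18 TNF non-responsive cells had a read in the 2-plate experiment, against 1 of 34 blank cells, and the highest cell held 108.5 CPM. With 54 reads against 0 it was at least 77.9-fold higher in the 1-plate experiment, counting blank cells at a floor of 3 reads over the group. There were 358 reads against 1 in the 2-plate experiment, a ratio of 828.8 (95% counting interval 147.8 to 32820). The fitted log2 fold change was 9.85 (SE 1.20, edgeR adjusted p = 0.027) and depends on the prior count because blank cells were near 0.

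ENSMUSG00000028214 rose in a similar minority of cells. Its level was 8.16 CPM in TNF non-responsive cells of the 1-plate experiment (0, 2.80 and 23.4 CPM in the 3 cells), against 0 in blank cells. Levels in the 2-plate experiment were 0.84 CPM on Plate1 and 23 CPM on Plate2 in TNF non-responsive cells, against 0.17 and 0 CPM in blank cells. Plate1 thus gave little: 1 of 7 TNF non-responsive cells had a read there, against 1 of 18 blank cells, whose 5 reads were the only ones in any blank cell. On Plate2 it was 4 of 11 TNF non-responsive cells, against 0 of 16 blank cells, and a count of 0 allows a level of up to 0.0939 CPM there. The fitted log2 fold change was 7.62 (SE 0.85, edgeR adjusted p = 0.021).

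ENSMUSG00000027452 fell by the largest amount among genes lower in both experiments and on both plates. It had 0.35 CPM in TNF non-responsive cells of the 1-plate experiment, 1 read in 1 of 3 cells, against 14.6 CPM and 8 of 13 blank cells. TNF non-responsive cells of the 2-plate experiment had 0.14 CPM on Plate1 and 0.88 CPM on Plate2, against 7.71 and 10.2 CPM in blank cells. It was lower on both plates, with a ratio of 0.018 on Plate1 and 0.086 on Plate2, and 4 of 18 TNF non-responsive cells held a read, against 15 of 34 blank cells. The log2 fold change was -4.53 (SE 0.62, edgeR adjusted p = 0.041). It kept its sign but did not pass in 12 of 37 other tested settings, among them the fit of only the 4 sums of both classes (edgeR adjusted p = 0.267), G2M cells (0.207), Plate1 left out (0.161) and limma with voom weights (0.112). In the 2-plate experiment its level was 0.49 CPM in TNF non-responsive, 12.3 CPM in oscillatory and 5.97 CPM in transient cells; on Plate2 2 of 11 TNF non-responsive cells had a read (0.88 CPM), against 6 of 28 transient cells (3.27 CPM).

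ENSMUSG00000022824 was at 23.8 CPM in TNF non-responsive cells of the 1-plate experiment (0, 30.8 and 50.1 CPM in the 3 cells), against 118.5 CPM in blank cells. Levels in the 2-plate experiment were 26.8 CPM on Plate1 and 5.37 CPM on Plate2 in TNF non-responsive cells, against 50.6 and 128.8 CPM in blank cells. The gap was wider on Plate2, and single cells overlapped widely: the TNF non-responsive cells of that experiment ran between 0 and 128.7 CPM with a median of 1.54, the blank cells between 0 and 632.1 CPM with a median of 18.2. The log2 fold change was -2.38 (SE 0.20, edgeR adjusted p = 0.010).

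**Figure D2:**
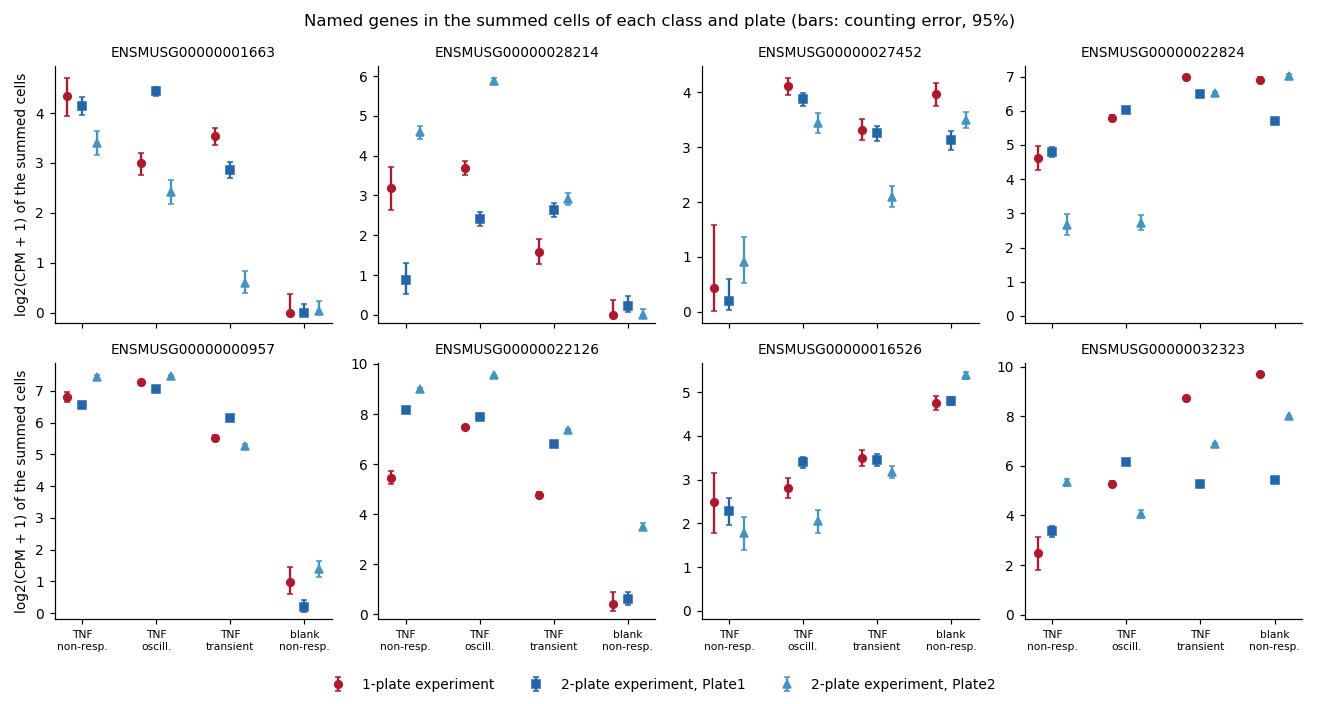
Levels of 8 genes as log2(CPM + 1) of the summed reads in TNF non-responsive, TNF oscillatory, TNF transient and blank non-responsive cells, for the 1-plate experiment and both plates of the 2-plate experiment; bars are exact Poisson 95% intervals (counting error only). In ENSMUSG00000000957 and ENSMUSG00000022126 all 3 TNF classes lie above the blank cells on every plate, and in ENSMUSG00000027452 the TNF non-responsive cells lie below both responding classes.

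With experiments as the replicates, the 2-plate experiment alone has 1 sum per class, and its genes were compared here by size and without a test; the fit with its plates as replicates is the one given above. Counting genes with at least 20 CPM and a read in at least 50% of cells of the higher class, 75 of 7352 genes were at least 4-fold higher in TNF non-responsive than in blank cells (1.02%) and 20 were at least 4-fold lower (0.272%). The 1-plate experiment, which took no part in that choice, had the same direction for 63 of the 75 higher genes, against 46% of all 7352 genes, and 52 were at least 2-fold higher there, against 9.36%. For the 20 lower genes the direction was the same for 15, against 54% of all genes, and 12 were at least 2-fold lower, against 11.5%. On Plate2 alone, which holds all 6 low-complexity cells, 99 genes were at least 4-fold higher and 154 at least 4-fold lower, against 100 higher and 20 lower on Plate1 alone.

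ENSMUSG00000000957 had the largest ratio among higher genes that kept their direction in the 1-plate experiment and on both plates. It stood at 129.6 CPM in TNF non-responsive cells, against 0.90 CPM in blank cells, a ratio of 143.3 (95% counting interval 110.1 to 190.1). Single cells ran between 0 and 721.3 CPM with a median of 0.92 in the TNF non-responsive class, and 9 of 18 had a read, against 5 of 34 blank cells, of which the highest was at 21.4 CPM. Levels thus came from some of the cells: 1 cell gave 53% of the reads of the TNF non-responsive class, which was at 67.4 CPM without it. The 3 cells of the 1-plate experiment were at 0, 5.56 and 256.3 CPM, against 0.98 CPM over the blank cells. It was also among the 65 called genes, with a log2 fold change of 7.04 (SE 0.26, edgeR adjusted p = 0.00035), a call lost without the G2M cell of the 1-plate experiment (adjusted p = 0.296).

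ENSMUSG00000022126 was raised in most TNF non-responsive cells. It stood at 388.9 CPM, with 15 of 18 cells holding a read, against 5.57 CPM and 3 of 34 blank cells. The median TNF non-responsive cell was at 107.7 CPM and the highest at 1726 CPM, against a median of 0 and a highest cell of 117.7 CPM among blank cells. By plate, TNF non-responsive cells had 285.4 CPM on Plate1 and 507.5 CPM on Plate2, against 0.53 and 10.3 CPM in blank cells. Without the highest cell of each group the TNF non-responsive sums were 61.4 CPM on Plate1 and 195.1 CPM on Plate2. The blank sums were then 0 and 0.17 CPM. The highest cell had given 81.5% of the TNF non-responsive reads on Plate1 and 69.4% on Plate2. The median TNF non-responsive cell was at 19.45 CPM on Plate1 and 145.1 CPM on Plate2. In the 1-plate experiment the 3 cells were at 1.40, 50.6 and 65.6 CPM, against 0.33 CPM over blank cells. Its log2 fold change was 6.10 (SE 0.60, edgeR adjusted p = 0.019).

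Of the lower genes, ENSMUSG00000016526 was at 3.18 CPM in TNF non-responsive cells, with a read in 5 of 18, against 33.9 CPM and 29 of 34 blank cells. The median TNF non-responsive cell of that experiment was at 0, against 21.1 CPM in blank cells. Levels in the 1-plate experiment were 4.61 CPM in TNF non-responsive and 26 CPM in blank cells, with a read in 1 of 3 TNF non-responsive cells, against 7 of 13 blank cells. The test over both experiments gave a log2 fold change of -2.99 (SE 0.47) that did not pass (edgeR adjusted p = 0.062). It passed in 5 of 37 other tested settings: edgeR gave adjusted p = 0.0112 with sums per plate, 0.0405 with thinned cells, 0.0476 with cells of at least 8000 genes and 0.0281 with no filter on low counts, and DESeq2 gave 1.72e-08.

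ENSMUSG00000032323 was at 23.3 CPM in TNF non-responsive cells, against 152.7 CPM in blank cells, whose highest cell was at 2098 CPM. On Plate1 it had 9.31 CPM and a read in 2 of 7 TNF non-responsive cells, against 42.8 CPM and 15 of 18 blank cells. Cells on Plate2 did not follow the sums: TNF non-responsive cells had 39.4 CPM, a read in 8 of 11 cells and a median cell at 11 CPM, against 255.7 CPM, 10 of 16 cells and a median cell at 5.64 CPM in blank cells. In the 1-plate experiment the 13 blank cells were at 846.8 CPM, with 54.4% of those reads from 1 cell. The median blank cell there was at 14.6 CPM, and the sum was 417 CPM without the highest cell. All reads of the TNF non-responsive class there, at 4.61 CPM, came from 1 of 3 cells. Its log2 fold change over both experiments was -4.42 (SE 1.15) and did not pass (edgeR adjusted p = 0.17); DESeq2 (adjusted p = 0.0108) and edgeR with spike-in size factors (adjusted p = 0.000334) called it.

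The next question was whether genes that were higher in responding TNF cells were also higher in cells without a response. To keep the cells apart, genes were chosen in one experiment on responding TNF cells and read in the other on TNF non-responsive cells. In the 1-plate experiment 108 genes were at least 4-fold higher in responding TNF cells than in blank cells by the size rule above. In the 2-plate experiment 94 of the 108 were higher in TNF non-responsive than in blank cells (87%, against 46.1% of 12316 genes at 1 CPM or more), and 70 were at least 2-fold higher (64.8%, against 10.8%). The median log2 ratio of CPM + 1 over the 108 genes was 1.49 in TNF non-responsive cells, against -0.05 over all genes.

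The same 108 genes were also above blank cells in responding cells of the 2-plate experiment. Their median log2 ratio to blank cells was 1.47, made up of 1.85 in oscillatory and 1.06 in transient cells, beside 1.49 in TNF non-responsive cells; these ratios share the blank cells and are given side by side only. On Plate1 the median was 1.46 in TNF non-responsive and 1.75 in responding cells, and on Plate2 it was 1.38 in each class. With only cells of at least 8000 detected genes it was 1.60 in TNF non-responsive and 1.45 in responding cells. Leaving out the low-complexity cells thus did not lower the ratio in TNF non-responsive cells.

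**Figure D3:**
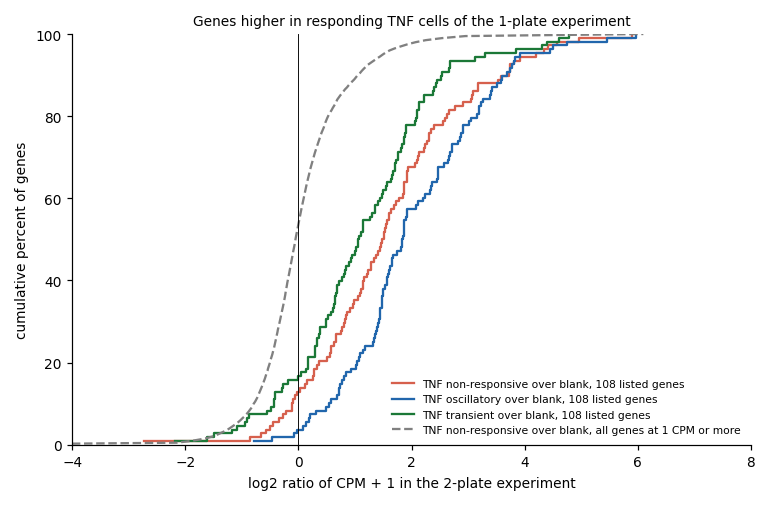
Cumulative percent of genes by log2 ratio of CPM + 1 to blank non-responsive cells in the 2-plate experiment, for the 108 genes chosen on responding TNF cells of the 1-plate experiment, in TNF non-responsive, oscillatory and transient cells, and for all 12316 genes at 1 CPM or more in TNF non-responsive cells. The curve of TNF non-responsive cells has its median at 1.49, between transient (1.06) and oscillatory cells (1.85), while the curve of all genes is centred near 0.

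With the experiments exchanged, 63 genes were chosen on responding cells of the 2-plate experiment and read in the 3 TNF non-responsive cells of the 1-plate experiment. There 55 of the 63 were higher than in blank cells (87.3%, against 48.3% of 12592 genes), and 48 were at least 2-fold higher (76.2%, against 17.8%). The median log2 ratio was 2.71 in TNF non-responsive and 2.79 in responding cells. Fewer genes could be chosen in the other direction. Of 32 genes at least 4-fold lower in responding than in blank cells of the 1-plate experiment, 24 were lower in TNF non-responsive cells of the 2-plate experiment (75%, against 53.9% of all genes), and 8 were at least 2-fold lower (25%, against 6.33%). A single gene was so chosen in the 2-plate experiment, and it was lower in the 1-plate experiment too, where 19.0% of genes were at least 2-fold lower.

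Cell by cell, the TNF non-responsive class was spread widely. The mean log2(CPM + 1) over the 108 genes ran between 1.94 and 6.29 in the 18 TNF non-responsive cells of the 2-plate experiment, with a median of 4.12, against 1.49 to 4.65 with a median of 2.93 in the 34 blank cells. Of the 18 cells, 15 lay above the blank median and 5 above the highest blank cell, so the classes overlapped. Oscillatory cells had a median of 5.58, with 26 of 36 above the highest blank cell, and transient cells a median of 3.83, with 13 of 51 above it. In the 1-plate experiment the 3 TNF non-responsive cells were at 3.73, 4.22 and 5.79 over the 63 genes, all above the highest of the 13 blank cells at 3.40.

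With all cells used, the gap to blank cells was present on each plate but not in each phase. Among G2M cells of the 2-plate experiment the median was 4.55 in 7 TNF non-responsive cells, against 3.05 in 20 blank cells, and among S cells it was 4.15 in 5 TNF non-responsive cells, against 2.28 in 5 blank cells. Among G1 cells the order was the other way, with a median of 3.11 in 6 TNF non-responsive cells, against 3.50 in 9 blank cells. Of these 6, the cells with 4207 and 5622 detected genes were at 2.06 and 3.01. The others, with at least 8000 genes, were at 2.44, 3.20, 5.07 and 5.495, and each blank G1 cell had at least 8000. On Plate1 the G1 median was 3.97 in 2 TNF non-responsive and 4.58 in 3 blank cells. On Plate2 it was 3.11 in 4 and 2.965 in 6, so the G1 order differed between plates. Cells overlapped in all 3 phases. Over all phases the median on Plate1 was 4.15 in TNF non-responsive and 2.86 in blank cells, and on Plate2 4.08 in TNF non-responsive and 3.05 in blank cells. Cells thinned to 400000 reads had medians of 4.18 in 14 TNF non-responsive cells and 2.86 in 32 blank cells, leaving out 4 and 2 shallower cells. Of the 108 genes, a TNF non-responsive cell had a read of 40 to 102 (median 84), against 26 to 93 (median 68.5) in a blank cell.

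**Figure D4:**
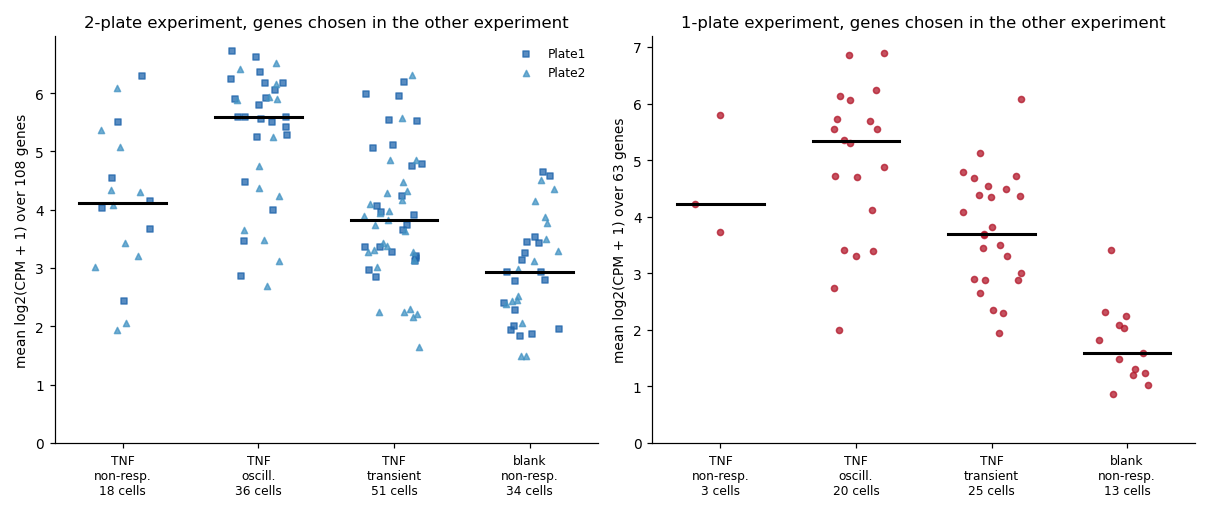
Mean log2(CPM + 1) per cell over genes chosen on responding TNF cells of the other experiment, in TNF non-responsive, oscillatory, transient and blank non-responsive cells of the 2-plate (108 genes, left) and the 1-plate experiment (63 genes, right); points are cells and lines are medians. In the 2-plate experiment TNF non-responsive cells have a median of 4.12, against 2.93 in blank cells, with overlap; in the 1-plate experiment the 3 TNF non-responsive cells lie above all 13 blank cells.

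Finally, TNF non-responsive cells were set against responding TNF cells directly. In the same edgeR fit 0 of 14642 genes were called (0.0%), with 1766 at an unadjusted p under 0.05. limma with voom weights also called 0, whereas DESeq2 on the same sums called 330 higher and 181 lower. The fit with 2 experiments thus left the 2 classes undecided and does not show that they are alike. For the named risen genes the log2 difference to responding cells was 0.84 for ENSMUSG00000001663 (95% interval -0.59 to 2.26), 0.30 for ENSMUSG00000028214 (-0.88 to 1.49) and 0.01 for ENSMUSG00000022126 (-0.99 to 1.01). For ENSMUSG00000000957 it was 0.45 (0.06 to 0.83), an interval above 0 that is not adjusted for the number of genes, and the difference did not pass (edgeR adjusted p = 0.38).

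Most of the 53 risen genes also stood above blank cells in the other TNF classes. The 53 risen genes had a median over genes of 92.7 CPM in TNF non-responsive cells of the 2-plate experiment, 77.1 CPM in oscillatory and 56.1 CPM in transient cells, against 20.5 CPM in blank cells, and 52 and 53 of them were above blank cells in oscillatory and transient cells. In the 1-plate experiment the medians were 133.0 CPM in TNF non-responsive, 82.1 CPM in oscillatory and 57.6 CPM in transient cells, against 15.1 CPM in blank cells. The order of the 3 TNF classes was the same in both experiments, but the genes were chosen on the first of them. They were also chosen against these same blank cells, so part of the height of the other classes above blank cells is built into the choice. The share of all genes tested that stood above blank cells in those classes was not counted. The 12 fallen genes had a median of 24.6 CPM in TNF non-responsive, 36.9 CPM in oscillatory and 96.3 CPM in transient cells, against 130.4 CPM in blank cells of the 2-plate experiment. Against responding cells, 11 of the 12 had a log2 difference below 0, and 46 of the 53 risen genes had one above 0. Both sets were chosen on TNF non-responsive cells, which builds in part of those directions. The gene farthest from responding cells among those named was ENSMUSG00000027452, with a log2 difference of -4.38 (95% interval -5.78 to -2.99), which did not pass (edgeR adjusted p = 0.23). The other named fallen genes were also below responding cells, at -1.89 for ENSMUSG00000022824 (-2.32 to -1.47), -1.12 for ENSMUSG00000016526 (-2.09 to -0.16) and -2.40 for ENSMUSG00000032323 (-4.69 to -0.11). Their unadjusted intervals lay below 0, but none of these differences passed (edgeR adjusted p = 0.11, 0.38 and 0.41). DESeq2 called ENSMUSG00000027452 (adjusted p = 4.67e-09) and ENSMUSG00000022824 (adjusted p = 6.14e-18), but not the others.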

How the data were processed

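Single GMPs were profiled by adapted Smart-Seq2 on 3 plates in 2 experiments. What the authors deposited are raw read counts, 1 row for each Ensembl gene identifier. SAMtools, Subread 1.5.0 and featureCounts are named in the submitters' processing notes; the sources used here name no aligner setting and no genome build. Stimulus, response class and phase came from the authors' cell tables, whose phase scores are deposited as a fraction between 0 and 1 and were used only as values. Of the count columns, 357 matched no sample and were not used. The authors' tables kept 238 cells; the other 44 samples were not analysed here. No columns were identical between cells. The 92 spike-in features stayed out of library sizes (0.0569 to 23.6% of reads per cell).

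Cells are not replicates, so counts were summed per experiment and class (8 sums) and tested with edgeR 4.0.16 in R 4.3.3: TMM factors, filterByExpr, experiment plus class, quasi-likelihood test, Benjamini-Hochberg adjusted p under 0.05, 3 residual degrees of freedom, 4.04 prior degrees of freedom. The method was tested on simulated data. These were drawn with the spread that the fit itself estimated, so they cannot show how it treats sums led by 1 cell. Plate numbers of the 2 experiments were not taken as pairs; the experiment term is the block. Alternatives used DESeq2 1.42.0 and limma 3.58.1. Named genes were the called genes with the largest fitted change, and the genes with the largest ratio in the 2-plate experiment, each with one direction in both experiments and on both plates; since identifiers carry no names, 2 per direction were taken from each rule, and the planned lists by gene name, the exclusion of predicted and sex-linked genes and the marker check could not be applied. Size comparisons used log2 ratios of CPM + 1. The cells, lists and rules were chosen with earlier results of these data known. Depth was 182301 to 3380416 reads per cell (median 1353551).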

Additional observations from a re-analysis of the deposited data

Results flagged for a closer look

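Among the 7 TNF non-responsive cells on Plate1 of the 2-plate experiment, 12 measures were examined for a single cell far from the others, and 4 had one, all of them levels of named higher genes. A group of this size gives such a cell by chance in about 1 of 20 measures when values are normally distributed, which levels with many cells at 0 are not. The highest cell of each gene was at 108.5 CPM for ENSMUSG00000001663, with the next at 8.57 CPM, and at 4.96 CPM for ENSMUSG00000028214, with the others at 0. For ENSMUSG00000000957 it was at 470.1 CPM, with the next at 137.2 CPM, and for ENSMUSG00000022126 at 1661 CPM, with the next at 221.6 CPM. By its depth, 1 cell with 1999750 reads was the highest for ENSMUSG00000001663, ENSMUSG00000000957 and ENSMUSG00000022126, so those flags are not independent. Another cell was the highest for ENSMUSG00000028214. Without the highest cell of each gene the class on Plate1 was at 1.79, 0, 32.2 and 61.4 CPM for these genes in the same order, against 0, 0.17, 0.13 and 0.53 CPM in blank cells.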

How the results depend on the processing

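Against 53 genes higher and 12 lower than in blank non-responsive cells, DESeq2 called 741 and 493, no filter on low counts 150 and 54, a filter of 10 CPM in 50% of sums 172 and 37, sums per plate 199 and 135, cells thinned to 400000 reads 90 and 23, and no replicate block (no experiment term) 1 and 0. The lower genes also numbered 20 with only the 4 sums of both classes, 3 with G2M cells only and 27 with spike-in size factors, which called 57 higher, 19 of the 65 called genes among both directions. Over fits without 1 replicate the higher genes numbered 24 to 47 and the lower 2 to 10 (47 and 7 without Plate2); over 21 fits without 1 TNF non-responsive cell each they ran between 0 and 72 and between 0 and 20, with 0 of both only without the G2M cell of the 1-plate experiment. The 65 genes kept their direction wherever tested in every setting except among G2M cells, where 64 did. The cause of these shifts was not tested. Against responding TNF cells, where 0 genes were called, DESeq2 gave 330 and 181, no filter 11 and 4, the 10 CPM filter 2 and 2, sums per plate 2 and 0, spike-in factors 3 and 10, and fits without 1 replicate or cell 0 to 2 higher and 0 lower. By size in the 2-plate experiment a pseudocount of 10 CPM gave 33 genes higher and 5 lower in place of 75 and 20, and leaving out a plate 99 to 100 higher and 20 to 154 lower.

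Log2 differences to responding cells that were near 0 changed sign: ENSMUSG00000028214 was at -0.22 with sums per plate, -0.10 in G2M cells, -0.34 with spike-in factors, -0.56 without Plate2, and -0.83 to 0.76 over fits without 1 replicate or cell; ENSMUSG00000022126 was at -0.018 with no filter, -0.06 in thinned cells, -0.81 with spike-in factors, -0.085 without Plate1 and -0.36 to 0.18 over fits without 1 cell; and ENSMUSG00000000957 was at -0.22 with spike-in factors and -0.78 to 0.72 over fits without 1 cell. Of the other called genes named, ENSMUSG00000028214 did not pass in 10 of 37 tested settings, and of 38 each ENSMUSG00000022824 did not pass in 8, ENSMUSG00000001663 in 7, ENSMUSG00000022126 in 3 and ENSMUSG00000000957 in 1, all with their sign kept. The voom weights, the removal of low-complexity cells and of single cells, and the lists carried between experiments were chosen after seeing the data. With 3 TNF non-responsive cells in the 1-plate experiment, depth limits genes found in few cells.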

Other observations

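By the same size rule and with no test, TNF non-responsive cells differed from responding TNF cells at least 4-fold for 4 higher and 2 lower of 7209 genes in the 2-plate experiment. In the 1-plate experiment, with 3 TNF non-responsive cells, 122 of 7821 genes were at least 4-fold higher and 127 lower. Of those, 77 of the 122 were also higher in the 2-plate experiment (63.1%, against 47.7% of all genes) and 61 of the 127 were also lower (48%, against 52.3%). At least 2-fold in the 2-plate experiment were 18 of the 122 higher genes, against 1.176% of all genes, and 10 of the 127 lower genes, against 1.215%. Of the 4 higher and 2 lower genes of the 2-plate experiment, 3 and 1 had the same direction in the 1-plate experiment, against 42.84% and 57.16% of all genes.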
